A study of Mus musculus with 6 samples.

Results

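The genes described here are 50 type I interferon antiviral genes, listed by symbol. They were looked up in a table of RNA sequencing counts from macrophages of the mouse peritoneum, phagocytes of the belly cavity, kept in culture. All 50 symbols were found among the 24454 symbols of the table, and the 42 with 30 or more counts summed over the 6 libraries were kept. The members were grouped by the role of their products, not by their values.

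The macrophages came from wild-type male C57BL6/J mice aged 6 to 8 weeks. A pair of libraries was made from cells given vehicle for 5 h, another from cells given 10 ng/ml LPS, the bacterial endotoxin, for 4 h, and the last pair from cells given 10 µM SGA360 for 1 h and then LPS at 10 ng/ml for 4 h. SGA360 binds the aryl hydrocarbon receptor (AHR), a transcription factor that small molecules switch on or modulate. Whether the 2 libraries of a group stem from different animals or cultures is not in the labels; the p-values therefore reflect library-to-library spread, which may be technical. They also name no solvent pretreatment for the LPS libraries, so SGA360 and its solvent cannot be told apart.

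Library totals ranged from 7726973 to 9529817 counts. Levels are given in CPM, the usual depth-scaled count, with library sizes adjusted by TMM, always with replicate 1 before replicate 2. Vehicle replicate 1 stood apart from the rest, with a count for 10001 symbols against 12282 to 12643 in the other 5 libraries and 4.92% of its counts in the ribosomal RNA gene Rn45s against at most 0.684%. Macrophage markers were abundant, at a summed 20595 to 24822 CPM in each library, most of it Lyz2 (18255 to 22238 CPM), and 6 of the 7 had 30 or more counts. Markers of B cells summed to 29.0 to 33.3 CPM and of T and NK cells to 2.84 to 9.16 CPM. Those of neutrophils summed to at most 3.33 CPM, of mast cells to 52.3 to 65.6 CPM and of fibroblasts to 4418 to 5379 CPM. Most of the fibroblast sum was the collagen genes Col1a1, Col1a2 and Col3a1, while Lum, Dcn and Pdgfra were at most 11.7 CPM. Dcn and Pdgfra have 2 transcript rows each. Plasmacytoid dendritic cells, known for high interferon output, could not be judged, because 4 of their 5 markers, the defining Siglech among them, have several transcript rows, a kind of symbol that is nearly empty in this table. As these are bulk samples, fewer cells of a type and less RNA per cell cannot be told apart.

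Type I interferons are cytokines that cells release when they sense microbial products or foreign nucleic acid. In macrophages the LPS receptor TLR4 signals through the adaptors TRAM and TRIF to the kinase TBK1 and the transcription factor IRF3, which turns on the interferon beta gene and some antiviral genes directly. Secreted interferon then binds the receptor IFNAR on the same and neighbouring cells. Its kinases JAK1 and TYK2 activate STAT2, which acts in a complex with IRF9 at the interferon-stimulated response element (ISRE) in front of the antiviral genes.

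The ISRE was searched as GAAA, any 2 bases, and GAAA again, on both strands, in RefSeq promoter windows (GRCm38.p6) of 250 bases before to 50 bases after each gene's start. Such windows were found for 32 of the 42 members. The ISRE letters occurred in 17 of these 32 (53.1%), against 1079 of 27025 symbols (3.99%) in the whole promoter table. The stretches below show the members with a match before the start, with the matching bases in capitals. On each side 15 further bases are given, cut off where the window begins or at the gene's start. These stretches are shown because about as many members carry these letters as lack them, and the letters did not enter the choice of members. A match describes letters only, and overlapping matches are drawn as one.

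Ifit1: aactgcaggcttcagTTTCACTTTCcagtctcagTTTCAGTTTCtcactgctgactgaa
Ifit3: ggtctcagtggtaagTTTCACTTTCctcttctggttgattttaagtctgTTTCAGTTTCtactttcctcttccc
Isg15: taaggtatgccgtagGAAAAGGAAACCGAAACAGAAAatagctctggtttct
Rsad2: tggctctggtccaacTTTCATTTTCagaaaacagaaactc
Cxcl10: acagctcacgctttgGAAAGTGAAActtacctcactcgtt
Ifi205: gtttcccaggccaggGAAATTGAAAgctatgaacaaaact
Ifi203: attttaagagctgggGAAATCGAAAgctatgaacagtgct
Oas3: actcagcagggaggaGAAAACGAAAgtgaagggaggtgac
Oas1a: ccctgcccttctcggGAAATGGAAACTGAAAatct
Stat2: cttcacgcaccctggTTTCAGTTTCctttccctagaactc
Trim30a: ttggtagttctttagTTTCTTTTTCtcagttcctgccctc
Slfn5: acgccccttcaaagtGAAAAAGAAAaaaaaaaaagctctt
Bst2: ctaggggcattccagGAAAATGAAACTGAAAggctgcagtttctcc

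The Ifit1 stretch lies at chr19:34640770-34640828 on the plus strand, with matches that begin 104 and 85 bases before the start. The Isg15 stretch lies at chr4:156200860-156200911 on the minus strand and holds 3 overlapping matches, the first 78 bases before the start. That of Rsad2 is at chr12:26456548-26456587 on the minus strand, 120 bases before the start, and that of Cxcl10 at chr5:92349078-92349117 on the minus strand, 213 bases before it. The stretches of Ifi205 (chr1:174031865-174031904) and Ifi203 (chr1:173942503-173942542), both on the minus strand, belong to neighbouring genes of one family. The Ifi203 stretch lies inside the deposited span of the gene, and another Ifi203 window, at the start of that span, holds no match. The bases after the start were found in a transcript of the same symbol for 29 of the 36 windows of members. They were not found for the windows of Ifi203, Bst2 and Stat2. The other 4 of the 17 members with a match (Ddx58, Eif2ak2, Ifih1 and Ifitm3) carry it only after the start.

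For longer context, these are the last 150 bases before the start of the members with the largest and the smallest response to LPS, Ifit1 (chr19:34640739-34640888, plus strand) and Trim25 (chr11:88999253-88999402, plus strand). The Trim25 window holds no match.

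Ifit1: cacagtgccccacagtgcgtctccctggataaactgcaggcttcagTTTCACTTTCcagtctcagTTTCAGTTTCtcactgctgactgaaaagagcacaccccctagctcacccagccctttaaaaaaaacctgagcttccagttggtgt
Trim25: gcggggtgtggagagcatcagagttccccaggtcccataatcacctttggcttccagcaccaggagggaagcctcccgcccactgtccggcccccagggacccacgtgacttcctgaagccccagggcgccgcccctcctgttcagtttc

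The gamma-activated site, searched as TTCNNNGAA, occurred in 6 of the 32 members (18.8%) against 9.55% of all symbols. The AHR core motif, searched as GCGTG on both strands, occurred in 11 of the 32 (34.4%) against 35.2% of all symbols. The LPS response overlapped widely between members with and without the ISRE letters. Log2 fold changes ran from 0.58 to 6.30 (median 3.03) for the 17 with a match and from 0.34 to 4.63 (median 2.57) for the 15 without.

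With LPS the group rose almost as a whole. The summed level of the 42 members was 2068 and 2021 CPM in the vehicle libraries, 7715 and 8621 CPM with LPS, and 8852 and 8454 CPM with SGA360+LPS. Both LPS libraries lay far above both vehicle libraries, while the LPS and SGA360+LPS libraries overlapped. By edgeR's quasi-likelihood test, fitted over all 9389 genes with a Benjamini-Hochberg adjusted p under 0.05 as the threshold, 41 of the 42 rose with LPS (97.6%), against 19.4% of all genes called higher. None fell, against 17.0% of all genes called lower, and 38 rose by more than 2-fold, against 818 of the 9389 genes. Both LPS libraries were above both vehicle libraries for all 42, against 33.1% of all genes. Mx1, Ifi44, Ifih1, Xaf1 and Cxcl9 were kept only through the libraries given LPS. A difference from vehicle was thus built into their being kept, and their part in these counts is a description. Every other member was called higher, and of these only Bst2, Sp100, Ifitm3 and Trim25 changed by less than 2-fold. The median log2 fold change of all 42 members was 2.63, and −0.01 over all genes tested. Without vehicle replicate 1, the library that stood apart, the median was 2.40 for the members and 0.00 over all genes tested. All 42 members had enough counts to be tested, but the list had been set with earlier results of these data known. Marker levels moved with LPS as well. The 5 markers of large peritoneal macrophages, the resident subset, summed to 933 and 1006 CPM in vehicle and to 347 to 364 CPM in the other 4 libraries. Most of that sum and of its fall was Cd93, at 774 and 851 CPM in vehicle and 219 and 242 CPM with LPS, while Gata6 went from 142 and 140 CPM to 108 and 93.7 CPM and Timd4, Icam2 and Alox15 stayed under 10 CPM. Among the macrophage markers, Mertk went from 98.9 and 104 CPM to 23.1 and 23.0 CPM and Fcgr1 from 100.015 and 91.0 CPM to 17.7 and 18.7 CPM, while Adgre1 went from 487 and 543 CPM to 1219 and 1316 CPM. The 7 mesothelial markers summed to 340 and 334 CPM in vehicle against 265 to 278 CPM. Their part in the rise of the antiviral genes was not tested.

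**Figure D1:**
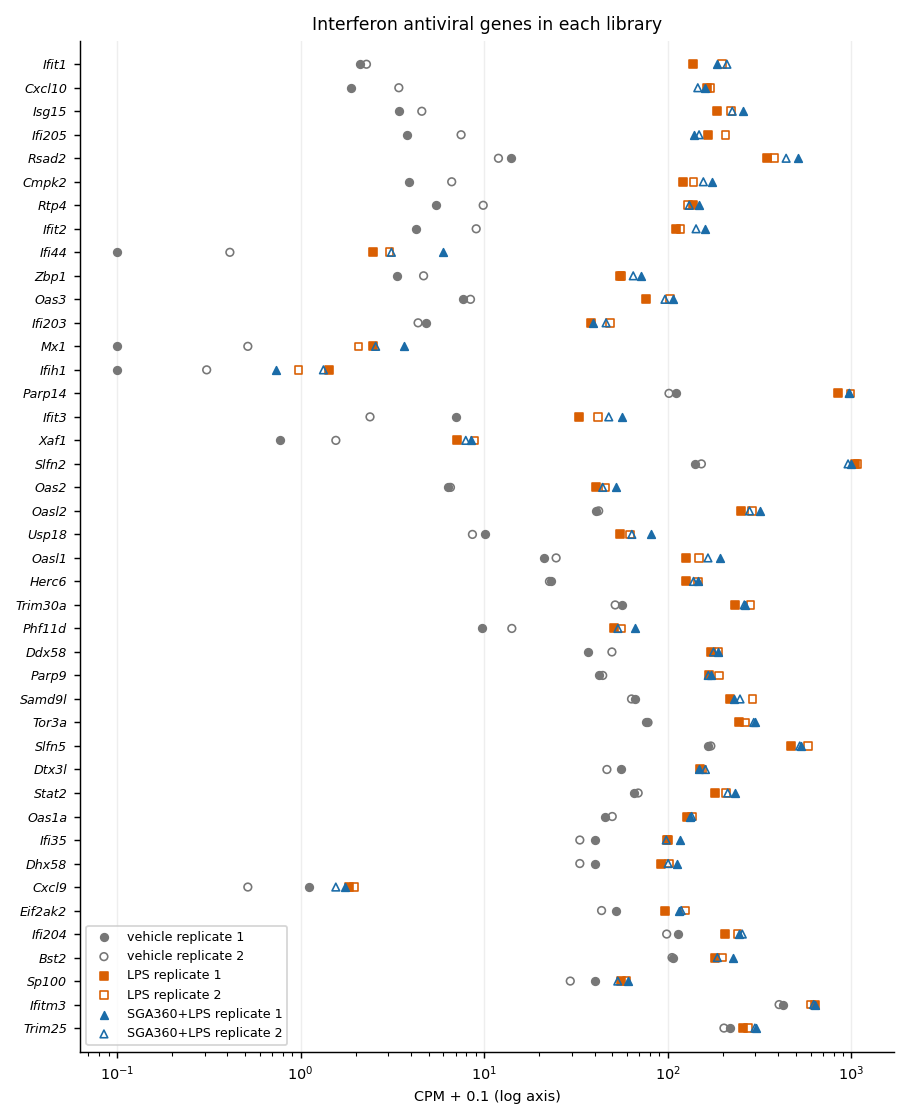
CPM plus 0.1 of each of the 42 members (rows, ordered by LPS response) in each of the 6 libraries, on a log axis; filled symbols are replicate 1 and open symbols replicate 2. The vehicle circles lie to the left of the LPS squares in every row, whereas the SGA360+LPS triangles lie among or close to the squares.

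Over all genes tested 19.4% were called higher with LPS, the background for the role groups below. The antiviral effectors had the highest median log2 fold change of the role groups (4.02). All 8 kept members rose, although Mx1 and Ifi44 were kept only through the libraries given LPS. The effectors held the largest single response, in Ifit1, while the next 3 were in other groups (Cxcl10, Isg15 and Ifi205). Ifit1, which encodes a protein that binds viral RNA lacking the host's cap methylation, stood at 2.01 and 2.19 CPM in vehicle, 136 and 197 CPM with LPS and 185 and 210 CPM with SGA360+LPS. The vehicle pair was close together and the other 4 libraries were far above it, with the 2 treatments overlapping. Its log2 fold change with LPS was 6.30 (SE 0.25; adjusted p = 2.67e-08). Rsad2, encoding viperin, an enzyme that makes a chain-terminating nucleotide, was at 13.9 and 11.9 CPM in vehicle, 346 and 381 CPM with LPS and 511 and 441 CPM with SGA360+LPS. For Rsad2 both SGA360+LPS libraries were above both LPS libraries. Cmpk2, a nucleotide kinase gene that lies 12762 bases from Rsad2 on chromosome 12, rose by 4.63 (SE 0.18), near the 4.82 (SE 0.12) of Rsad2.

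The 3 genes of the Ifit cluster on chromosome 19 lie between 34550694 and 34650009 (mm10, as deposited) and did not respond equally. Ifit2 went from 4.13 and 8.95 CPM in vehicle to 111 and 117 CPM with LPS, a log2 fold change of 4.10 (SE 0.21). Ifit3 had 6.93 and 2.29 CPM in vehicle, 32.6 and 41.5 CPM with LPS and 56.3 and 47.6 CPM with SGA360+LPS. Its vehicle libraries lay well apart, and its log2 fold change was 3.03 (SE 0.33) with both and 4.03 without vehicle replicate 1. Near-identical copies of Ifit genes exist in the mouse, and the sources used here do not state how shared reads were counted, so the level of Ifit3 is uncertain.

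Samd9l, which encodes a restriction factor of poxviruses and a brake on cell growth, had the smallest response of the effectors. It stood at 66.0 and 63.4 CPM in vehicle, 219 and 289 CPM with LPS and 231 and 247 CPM with SGA360+LPS, a log2 fold change with LPS of 1.98 (SE 0.12). Mx1, a gene of the dynamin-like GTPase family, and Ifi44 were near the limit of detection. Mx1 had 4 counts in the vehicle libraries together and 36 with LPS, a ratio of 10.0 with a 95% exact interval, covering counting error only, of 3.59 to 38.8. Ifi44 had 3 counts against 45, a ratio of 16.7 with an interval of 5.36 to 84.0. Mx1, Ifi44 and Ifih1 reached the minimum of 30 counts only through the libraries given LPS. A difference from vehicle was thus built into their being kept, and their ratios are descriptions. Cxcl9 (9 and 4 vehicle counts) and Xaf1 (6 and 14) also passed 30 only with the libraries given LPS. All vehicle counts of Mx1, Ifi44 and the sensor gene Ifih1 came from vehicle replicate 2, as the library that stood apart had 0.

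Among the chemokines, which attract activated T cells and NK cells through the receptor CXCR3, the 2 members differed widely in level. Cxcl10 was at 1.79 and 3.33 CPM in vehicle, 163 and 170 CPM with LPS and 158 and 146 CPM with SGA360+LPS. Cxcl9, better known as a target of interferon gamma, had only 1.01 and 0.416 CPM in vehicle and 1.73 and 1.86 CPM with LPS. It was the only member not called with LPS (log2 fold change 1.33, SE 0.67; adjusted p = 0.151), although without vehicle replicate 1 it was (2.09; adjusted p = 0.0214, in a range up to 0.507 over the alternatives). The span of Cxcl10 overlaps that of Art3, which had 0 counts.

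The ISG15 system, which attaches a ubiquitin-like protein to other proteins, rose in all 3 members. Isg15, the modifier itself, was at 3.35 and 4.47 CPM in vehicle, 186 and 221 CPM with LPS and 258 and 224 CPM with SGA360+LPS. Herc6, the ligase that attaches it in the mouse, was already at 23.1 and 22.6 CPM in vehicle and reached 126 and 145 CPM with LPS (log2 fold change 2.57, SE 0.11). Usp18, which removes ISG15 and also blocks signalling at the interferon receptor, rose by 2.67 (SE 0.17). The 95% interval of the log2 fold change was 5.32 to 6.06 for Isg15, above those of Herc6 (2.33 to 2.81) and Usp18 (2.29 to 3.04), which overlapped each other.

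All 5 kept members of the oligoadenylate synthetase family rose (median 2.70). These enzymes sense double-stranded RNA and activate RNase L, while the Oasl proteins are relatives with other functions. Oasl2 had the highest CPM, at 40.6 and 41.9 in vehicle, 250 and 287 with LPS and 318 and 279 with SGA360+LPS. Oas3 had the largest response, from 7.60 and 8.32 CPM to 75.7 and 103 CPM (log2 fold change 3.48, SE 0.18). Oas1a had the smallest, from 45.4 and 49.7 CPM to 128 and 136 CPM (1.47, SE 0.09), and its 95% interval lay below those of the other 4. Oas1a has close paralogs in its cluster, so its reads may be split.

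**Figure D2:**
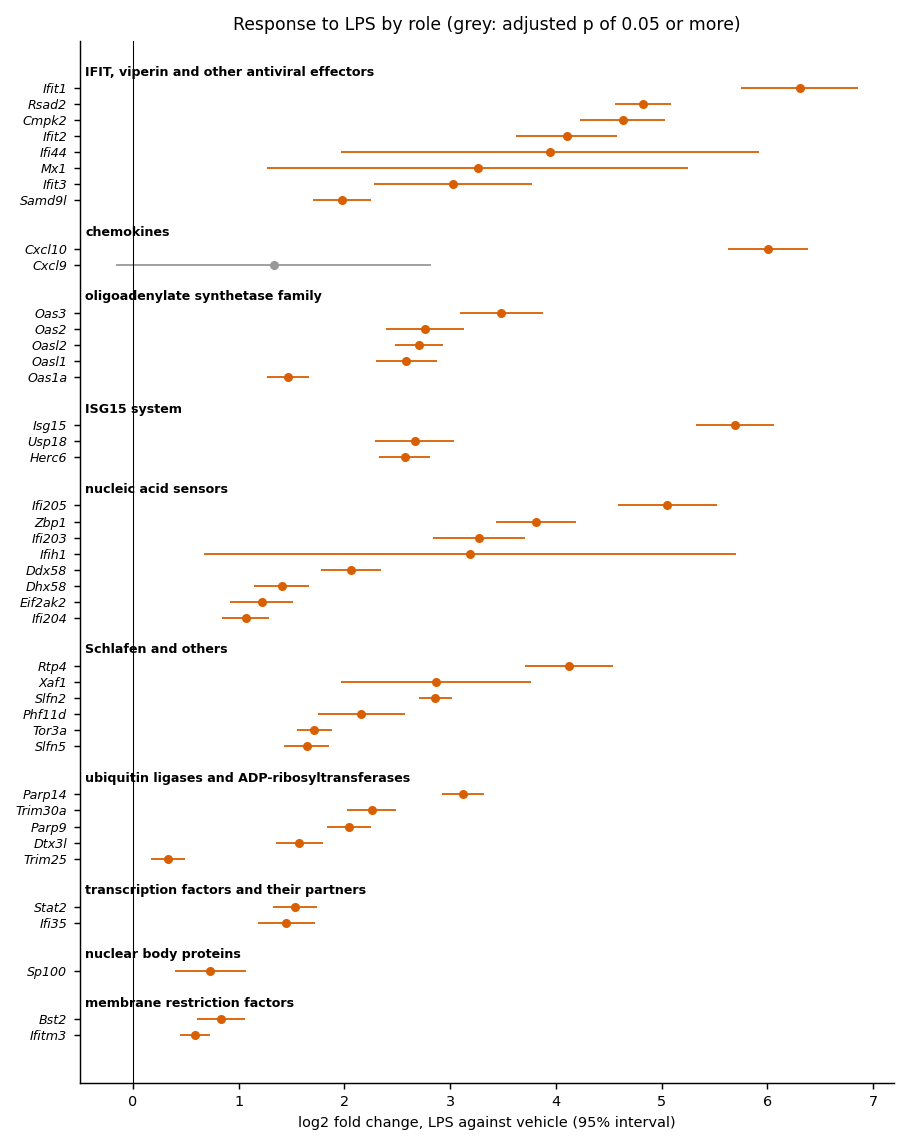
Log2 fold change of LPS against vehicle for each of the 42 members, grouped by role, with the 95% interval from the edgeR fit; orange points passed the adjusted p threshold of 0.05 and the grey point did not. The groups run from a median of 4.02 for the effectors to 0.71 for the membrane factors, and Cxcl9 is the only member in grey.

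All 8 nucleic acid sensors were called higher with LPS (median 2.62), over a wide range, although Ifih1 was kept only through the libraries given LPS. Ifi205, an interferon-inducible gene of the PYHIN family, was at 3.69 and 7.39 CPM in vehicle, 166 and 206 CPM with LPS and 139 and 148 CPM with SGA360+LPS. Its relative Ifi204, whose product senses DNA, was at 114 and 98.5 CPM in vehicle, 205 and 239 CPM with LPS and 244 and 255 CPM with SGA360+LPS. Within this family the log2 fold changes were thus 5.05 (SE 0.21) for Ifi205, 3.27 (SE 0.20) for Ifi203 and 1.07 (SE 0.10) for Ifi204, with intervals that did not overlap. PYHIN genes are close paralogs, so their separate levels are uncertain.

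Of the RIG-I-like receptors, which detect viral RNA in the cytosol, Ddx58 (RIG-I) went from 36.7 and 49.5 CPM in vehicle to 171 and 188 CPM with LPS (2.06, SE 0.13). Dhx58 (LGP2), their regulator, rose by 1.41 (SE 0.12). Ifih1 (MDA5), kept only through the libraries given LPS, had 2 counts in vehicle and 18 with LPS. Its ratio of 10.0, with an exact interval of 2.40 to 89.1, is thus a description. Its call sat at the threshold (adjusted p = 0.0499) and was lost under 10 of the 12 alternatives that tested it (adjusted p from 0.00835 to 0.316), including without vehicle replicate 1. Zbp1, a sensor of Z-form nucleic acid that triggers cell death, rose by 3.81 (SE 0.17), and Eif2ak2 (PKR), a kinase that stops translation, by 1.22 (SE 0.13).

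Both kept genes of the transcription factor group rose moderately. Stat2, part of the complex that binds the ISRE, was at 65.7 and 68.9 CPM in vehicle, 181 and 208 CPM with LPS and 231 and 212 CPM with SGA360+LPS. Ifi35, which encodes a partner of NMI, was at 39.9 and 33.1 CPM in vehicle and 101 and 98.7 CPM with LPS. Their log2 fold changes were 1.53 (SE 0.09) and 1.45 (SE 0.12). Irf7 and Irf9, the other defining factors, could not be measured, as described below.

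In the group of ubiquitin ligases and ADP-ribosyltransferases, all 5 rose, from the large response of Parp14 to the smallest of the whole list in Trim25. Parp14, a mono-ADP-ribosyltransferase gene, was at 110 and 101 CPM in vehicle, 849 and 988 CPM with LPS and 974 and 974 CPM with SGA360+LPS (log2 fold change 3.12, SE 0.09). Trim25, the ligase that activates RIG-I, was at 218 and 202 CPM in vehicle, 256 and 274 CPM with LPS and 303 and 298 CPM with SGA360+LPS. Its change of 0.34 (SE 0.07; adjusted p = 0.00453) lost its call without LPS replicate 2 (adjusted p = 0.0503, the highest of a range from 9.36e-05). Parp9 and Dtx3l, whose products form a complex, rose by 2.04 and 1.58. Their spans on chromosome 16 overlap by 558 bases on opposite strands. The sources used here do not state a strand setting, so reads from the shared bases cannot be assigned.

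The membrane restriction factors and the nuclear body gene were expressed before LPS and had the lowest median responses of the role groups, although Trim25 alone rose less. Ifitm3, which keeps viruses from fusing with endosomes, was at 424 and 404 CPM in vehicle, 637 and 605 CPM with LPS and 630 and 623 CPM with SGA360+LPS (0.58, SE 0.06). Bst2 (tetherin), which holds budding virions at the surface, was at 107 and 105 CPM in vehicle and 180 and 198 CPM with LPS (0.83, SE 0.10). Sp100, a nuclear body protein gene, was at 39.9 and 29.3 CPM in vehicle, 55.3 and 59.5 CPM with LPS and 60.3 and 53.3 CPM with SGA360+LPS. Its log2 fold change with LPS was 0.73 (SE 0.15). For each of these genes the change with LPS was below 2-fold, and the LPS and vehicle libraries still did not overlap.

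The last group, Schlafen genes and others, rose in all 6 members (median 2.51), although Xaf1 was kept only through the libraries given LPS. Slfn2, which keeps immune cells in a quiescent state, had the highest CPM of all members with LPS, going from 141 and 152 in vehicle to 1051 and 1078 with LPS and 994 and 959 with SGA360+LPS. Slfn5 went from 165 and 171 CPM to 471 and 578 CPM with LPS. Rtp4, a receptor chaperone gene, had the largest response of the group, from 5.36 and 9.78 CPM to 138 and 129 CPM (4.12, SE 0.19). The other 3, Xaf1, Phf11d and Tor3a, rose by 2.87, 2.16 and 1.71.

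Per kilobase of exon, the members differed widely in level before and after LPS. In vehicle Ifitm3 stood at 637 CPM per kb, Bst2 at 138 and Slfn2 at 88.1, while Isg15 was at 5.16 and Cxcl10 at 2.32. With LPS Ifitm3 (955 CPM per kb) and Slfn2 (639) were followed by Isg15 (269), Bst2 (245) and Cxcl10 (151). The difference between Isg15 and Bst2 with LPS was within the spread of the LPS libraries, and Cxcl10 remained below both.

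The other 8 listed members had too few counts to describe, with at most 9 over all libraries. These were Oas1g (8 counts), Irf9 (6), Ifi47 (3), Nmi (4), Daxx (9), and Irf7, Mx2 and Pml (0 each). All 8 have several transcript rows in the table, whereas all 36 members with 1 row were kept. In the whole table, symbols with several rows held 1.87% of all counts. Whether the counting of reads shared by transcripts set these values was not tested, so no statement is made on whether these 8 genes were expressed. The 6 kept members with several rows (Zbp1, Mx1, Ifih1, Ifi203, Xaf1 and Sp100) have uncertain levels for the same reason.

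The comparison of SGA360+LPS with LPS asks how the AHR ligand altered the response to the endotoxin. No member was called in either direction by edgeR, against 0.0746% of all genes (7 of 9389, all lower). At an unadjusted p under 0.05 there were 9 members, of which 8 were higher and 1 was lower with SGA360, against 276 of all genes (2.94%), of which 142 were higher and 134 lower. Every adjusted p of the members rounded to 1.00. The spread behind these tests and their intervals was estimated together with the vehicle pair, whose libraries differed most. The common coefficient of variation estimated by edgeR was 0.095 over all 6 libraries and 0.054 in a fit of these 2 groups alone. That fit called no member either. DESeq2 with its own filter on low means gave an adjusted p to only 6 of the 42 members and called 1 of them, Rsad2. Without that filter, an alternative chosen after seeing the data, all 42 had an adjusted p and none was called. For 37 of the 42 members the 95% interval of the difference lay within 2-fold either way. The exceptions were the low or variable Ifi44, Mx1, Ifih1, Cxcl9 and Ifit3. The share of all genes with such an interval is not given here. An adjusted p that misses the threshold does not show that the levels were alike.

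Most differences were small and upward. The estimate was above 0 for 33 members and below 0 for 9, with a median log2 difference of 0.11 against 0.00 over all genes tested. Of all 9389 genes tested, 4731 were above 0 and 4658 below. Both SGA360+LPS libraries lay above both LPS libraries for 14 members (33.3%, against 19.9% of all genes) and below both for 4 (9.52%, against 19.6%). The spread within the pairs was of the same size and also ran through the whole list. LPS replicate 2 was above replicate 1 for 37 of the 42 members (median log2 difference 0.17), and SGA360+LPS replicate 2 was above replicate 1 for 9 (median −0.12). Over all genes these medians were 0.01 and 0.00. Without LPS replicate 1 the median difference between treatments was 0.05 and without LPS replicate 2 it was 0.21.

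The 8 members higher at an unadjusted p under 0.05 came from several roles. Rsad2 differed by 0.39 (95% interval 0.19 to 0.59), Oasl1 by 0.39 (0.14 to 0.64) and Tor3a, an endoplasmic reticulum ATPase gene, by 0.22 (0.07 to 0.38). The others were Cmpk2 (0.35), Ifit2 (0.41), Zbp1 (0.30), Isg15 (0.24) and Trim25 (0.18). Rsad2, the clearest of them, was called by edgeR with no filter on low counts (adjusted p = 0.00156) and without vehicle replicate 2 (0.047), and by DESeq2 with its filter (0.0134) but not without it (0.0907). Ifit2 was called without vehicle replicate 1 (0.049) or 2 (0.0425). Over all alternatives the adjusted p of both ranged up to 1.

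Ifi205 was the 1 member lower at an unadjusted p under 0.05, by −0.37 (95% interval −0.70 to −0.04), and its 139 and 148 CPM lay below the 166 and 206 CPM of the LPS pair. Its relatives Ifi203 and Ifi204 stood at −0.02 (−0.36 to 0.32) and 0.17 (−0.05 to 0.38). The other members with both SGA360+LPS libraries below both LPS libraries were Slfn2 (−0.12), Cxcl10 (−0.13) and the scarce Cxcl9 (−0.21). None of these 4 was called under the alternatives that gave it an adjusted p; DESeq2 with its own filter gave one to Slfn2 but not to Ifi205, Cxcl10 or Cxcl9.

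**Figure D3:**
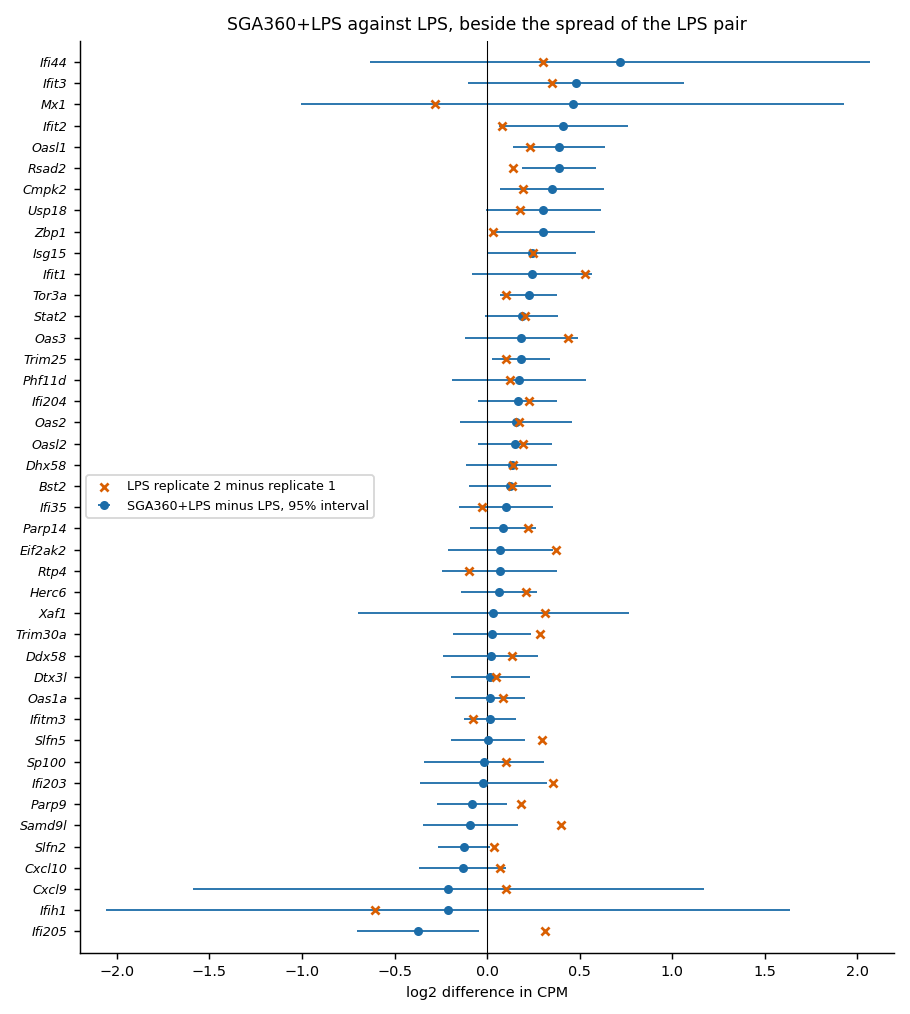
Log2 difference between SGA360+LPS and LPS for each of the 42 members (blue points with 95% intervals) beside the log2 difference between the 2 LPS libraries of the same gene (orange crosses). The crosses lie to the right of 0 for 37 members and are often as far from 0 as the blue points, which run from −0.37 for Ifi205 to 0.72 for Ifi44.

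Against vehicle, 40 of the 42 members were called higher with SGA360+LPS, where 17.9% of all genes were called higher, and none was called lower. Among the 40 were Mx1, Ifi44 and Xaf1, which were kept only through the libraries given LPS. This comparison shares the vehicle libraries with that of LPS, so its values are given beside the LPS values only as a description. The median log2 fold change was 2.79 with SGA360+LPS and 2.63 with LPS. Without vehicle replicate 1 the median with SGA360+LPS was 2.57. Cxcl9 (1.12; adjusted p = 0.239) and Ifih1 (2.98; adjusted p = 0.0718) were not called, and without vehicle replicate 1 Cxcl9 was (1.87; adjusted p = 0.0449), as was Ifih1 without vehicle replicate 2 (6.04; adjusted p = 0.0123).

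**Figure D4:**
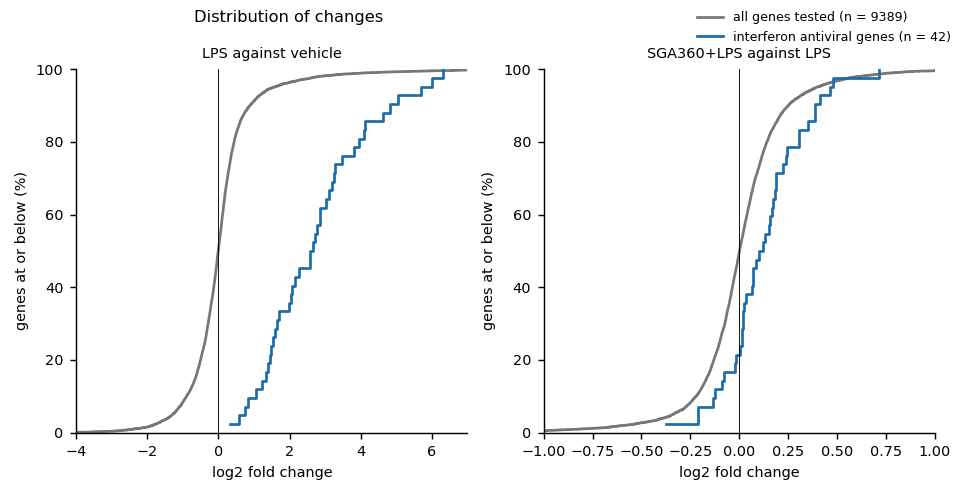
Cumulative share of genes (y axis, percent) at or below each log2 fold change (x axis) for the 42 members (blue) and all 9389 genes tested (grey), with LPS against vehicle on the left and SGA360+LPS against LPS on the right. The left blue curve starts above 0 at 0.34 and has its median at 2.63; the right one has its median at 0.11, on a much narrower axis.

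The genes upstream of these members were read from lists of the pathway. Of 21 interferon genes, 19 had 0 counts in all 6 libraries, which allows at most 0.312 to 0.399 CPM depending on the library. Ifnb1, encoding interferon beta, had a single count, in SGA360+LPS replicate 1. Genes of the Ifna family are near-identical copies, so reads shared among them may not have been counted. Ifng, encoding interferon gamma, had 0 counts in both vehicle libraries, 6 and 11 with LPS, and 2 and 7 with SGA360+LPS, too few to be tested. Type I interferon transcripts were thus not detectable beyond 1 read at this depth in libraries where the antiviral genes were high.

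Both chains of the type I receptor rose with LPS. Ifnar1 was at 275 and 316 CPM in vehicle, 511 and 527 CPM with LPS and 480 and 508 CPM with SGA360+LPS (log2 fold change with LPS 0.81, SE 0.08). Ifnar2, which has 2 transcript rows, went from 38.6 and 45.5 CPM to 101 and 106 CPM (1.30, SE 0.10), and stood at 96.1 and 97.1 CPM with SGA360+LPS. Over all genes tested 19.4% were called higher and 17.0% lower with LPS, the background for the counts of these lists. Of 8 tested genes of the receptors and JAK-STAT signalling, 4 rose with LPS, with Jak1 (0.42) and the interferon gamma receptor chain Ifngr2 (0.51) beside these, and 2 fell, Ifngr1 (−0.23) and Il10rb (−0.43).

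Of 9 tested genes that lead from TLR4 and nucleic acid sensing to interferon, 6 rose with LPS and 1 fell. Those that rose were the LPS co-receptor gene Cd14 (2.98), the kinase genes Ikbke (1.89) and Tbk1 (0.98), the RNA sensor gene Tlr3 (1.06) and the adaptor genes Ticam1 (0.35) and Ticam2 (0.34), which encode TRIF and TRAM. Tlr4 itself fell by 0.65 on the log2 scale (SE 0.15), from 117 and 104 CPM to 56.9 and 83.4 CPM. Of 8 tested negative regulators 3 rose: Socs3 (2.92), the phosphatase gene Ptpn1 (0.28), and Tnfaip3, which had 1 vehicle count and 2 transcript rows. With so few genes a list, nothing particular to a list is read from these counts. None of the tested genes of these 3 lists was called between SGA360+LPS and LPS.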

How the data were processed

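Polyadenylated RNA of 6 libraries was sequenced. For 34751 transcript rows, whole-number counts of reads and an exonic length were deposited in 1 table (per the file headers). TopHat2 2.0.13, HTSeq 0.5.4p3 and mm10 are named in the submitters' processing notes. The sources used here do not state the annotation or how strand and shared reads were handled. Groups and replicate numbers come from the sample titles.

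Counts were summed per symbol. Genes passing filterByExpr (minimum count 10) were scaled by TMM and fitted with glmQLFit and tested with glmQLFTest of edgeR 4.0.16 in R 4.3.3, in 1 model of 3 groups with 3 residual degrees of freedom. SE is the absolute log2 fold change over the square root of F. The code was tested on simulated data. Alternatives were DESeq2 1.42.0 with and without independent filtering, RLE scaling, other filters and thresholds, fits of 2 groups, a replicate block, 1-row symbols and each library left out. Deposited positions were raised by 1 base at the start, which equals a GENCODE transcript start for 20 of the 42 members, and all 42 overlap the protein-coding gene of that symbol.

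The members and lists were chosen with earlier results of these data known. Every member kept was eligible to be named. Those given per library are, in each role, the 1 or 2 with the highest mean CPM, the largest and smallest LPS response, and any with no LPS call or a call for SGA360. Ifit2 and Ifit3 fall outside it and were chosen once their values were known.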

Additional observations from a re-analysis of the deposited data

How the results depend on the processing

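The counts of members called with LPS ran from 35 (of 36 tested, symbols with 1 transcript row) to 41, and against vehicle with SGA360+LPS from 35 to 41. With 1 library left out they ran from 38 to 41 and from 39 to 41. No member was called lower than vehicle under any alternative run. Between SGA360+LPS and LPS, the count of 0 higher members became 1 with DESeq2 (of only 6 members with an adjusted p), 1 with no filter on low counts, and 0 to 2 with 1 library left out (Ifit2 when vehicle replicate 1 was dropped, Ifit2 and Rsad2 when vehicle replicate 2 was). The count of lower members was 0 under each alternative, for the members it gave an adjusted p. DESeq2 without independent filtering, chosen after seeing the data, gave all 42 one and called 0. With the replicate number as a block, 40, 0 and 40 members were called in the 3 comparisons. The share of all genes called under each alternative is not given here. The counts of members called under the alternatives are therefore descriptions without a background. The labels give no shared origin for equal numbers, and the correlation of same-numbered deviations was −0.01, 0.01 and 0.16 for the 3 pairs of groups, so the numbers were not taken as pairs. Fold changes from vehicle depend most on single vehicle libraries for scarce genes: that of Mx1 was 2.36 without vehicle replicate 1 and 7.21 without replicate 2, that of Ifi44 was 3.07 and 7.53, and that of Ifih1 was 2.32 and 6.22. Leaving out vehicle replicate 2 also raised Ifit2 to 4.80, Ifi205 to 5.67 and Xaf1 to 3.56. Mx1 lost its LPS call in the fit of 2 groups (adjusted p = 0.0512) and without either LPS or either SGA360+LPS library (up to 0.118), where the cause was not tested. Low counts limit Mx1, Ifi44, Ifih1, Xaf1 and Cxcl9.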

Other observations

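Socs3 and Cd14, 2 LPS-induced genes of the pathway lists, lay in the opposite direction to most antiviral members between the treatments. Socs3, a feedback inhibitor of cytokine receptors, was at 718 and 664 CPM with LPS and 590 and 505 CPM with SGA360+LPS, a log2 difference of −0.34 (SE 0.09), and Cd14 differed by −0.26 (SE 0.07). Neither passed the test, with an adjusted p of 1 by edgeR for each, and both were picked after their values were seen.

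Ifi35 and Dhx58 had the same counts in the vehicle libraries, 357 and 318, but not in the other 4 libraries. They lie apart on chromosome 11 and their spans do not overlap.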
